A study of Danio rerio with 2 samples.

Results

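The widest stretches of open chromatin in the zebrafish heart were the 469 regions of 1000 bp or more, among 41473 regions mapped by ATAC-seq in *hos* mutant and sibling hearts. They were chosen by length alone, from the deposited table of regions merged over both libraries. One library came from hearts of *hos* (heart of stone) mutants and 1 from hearts of their siblings, which carry the genotype label wt. Both were dissected at 96 hpf (hours post fertilization) from fish carrying Tg(*myl7*:GFP), a transgene in which the *myl7* promoter drives GFP in heart muscle cells. The protocol states 60 hearts without saying whether that is per library. The labels name heart as the tissue and cardiomyocytes as the cell type, and the labels describe no step that separates cell types. With 1 library per genotype there is no replicate check, so no difference below was tested between genotypes, and every fold describes these libraries.

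In ATAC-seq a transposase inserts adapters into DNA that is not wrapped tightly in nucleosomes, so that read density marks promoters, enhancers and other accessible sites. CpG islands are stretches rich in CG dinucleotides that lie at many promoters of widely used and developmental genes. Open regions much longer than a nucleosome are known at promoters of regulatory genes and where neighbouring elements run together. The series title names Smarce1, a subunit of the SWI/SNF complex, which moves and evicts nucleosomes.

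The 469 wide regions were between 1000 and 2734 bp long, with a median of 1117 bp. Most lay near the limit, since 327 were shorter than 1200 bp, 114 had from 1200 to below 1500 bp and 28 had 1500 bp or more. The first members above the limit were at *odc1*, the key enzyme of polyamine synthesis, at the ubiquitin ligase gene *rnf123* and at *creb3l3l*, each with 1000 bp. Regions 1 bp shorter, at *arhgef12a*, *ccdc126*, *znf609a*, *h3f3c* and *ctdspl2b*, were just outside it. The averages of these 3 members were 56.8 to 177 in the mutant and 55.4 to 128 in the sibling, against 62.7 to 178 in the mutant and 46.9 to 139 in the sibling for the 5 regions just below the limit. The averages are mean pileups, the mean number of overlapping fragments over bins of 32 bp.

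Wide regions made up 1.13% of regions and 3.32% of the covered length, and held 7.65% of mutant tags and 6.64% of sibling tags. All 469 carried a called interval in both libraries, as did 97.5% of the 8198 mid-length regions (500 bp up to the limit) and 54.7% of the 32806 regions below 500 bp. The median average signal was 107 in the mutant and 81.6 in the sibling for wide regions. It was 69.2 in the mutant and 57.6 in the sibling for mid-length regions, and 32.6 and 31.6 below 500 bp. Single wide regions had averages between 27.06 and 1725 in the mutant and between 18.6 and 1437 in the sibling. Wide regions were also more peaked, with a median peak signal, the highest pileup in a region, of 210 in the mutant and 163 in the sibling. The peak exceeded the average 1.83-fold in the mutant and 1.91-fold in the sibling at the median, against 1.60-fold and 1.62-fold in mid-length regions. Below 500 bp it was 1.28-fold in the mutant and 1.27-fold in the sibling. Peak over average depends on length, by which the regions were chosen, so this contrast is a description only. The flattest region in the mutant lay outside genes, at −8208 bp (upstream) from the start of *nadsyn1*, an enzyme gene of NAD synthesis. The peak there was 1.18 times the average in the mutant and 1.63 times in the sibling. The most peaked one in the mutant was at *brd2b*, which encodes a reader of acetylated histones, with 3.24 times in the mutant and 2.77 times in the sibling.

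**Figure D1:**
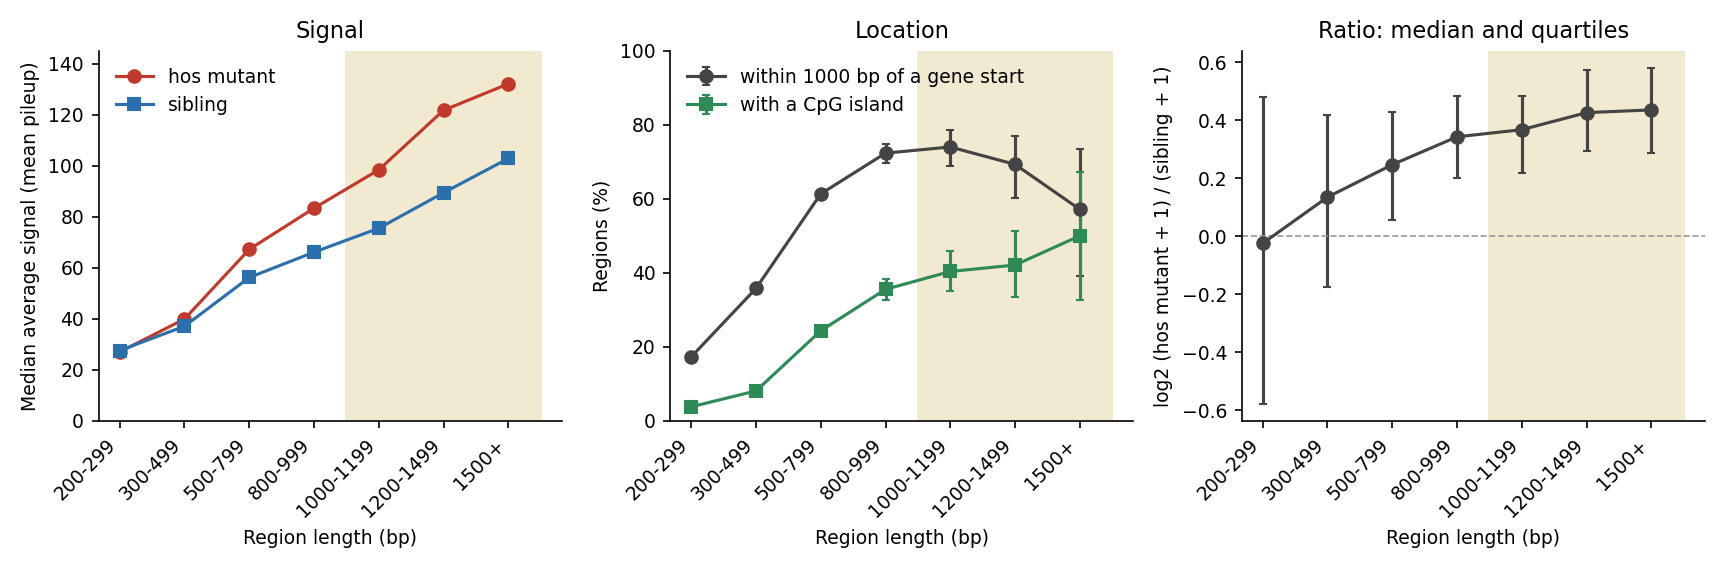
Regions by length (bp), with the wide classes shaded. Left, the median average signal (mean pileup) in *hos* mutant and sibling hearts. Middle, the percentage of regions within 1000 bp of a gene start or with a CpG island, with 95% Wilson intervals. Right, the median log2 ratio with quartiles as bars. Signal, CpG islands and the ratio were each highest in the longest class, at 132 in the mutant and 103 in the sibling, 14 of 28 regions and 0.44, while the share at starts was highest, 74.0%, from 1000 to below 1200 bp.

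Wide regions were joined from 2 to 4 called intervals. The joined intervals numbered 2 in 305 regions, 3 in 150 and 4 in 14, so that 35.0% held more than 2, against 2.92% of mid-length regions. Length is measured over the joined intervals, so the choice by length itself favours regions with more of them. The positions listed beside the genes accounted for every interval in 432 of the wide regions. In 283 of these each library had 1 interval, and the positions of the 2 intervals differed by a median of 32 bp and by at most 100 bp in 238. In 129 regions the sibling had more intervals than the mutant, in 124 of them as 1 mutant interval against 2 sibling intervals. The opposite, more mutant than sibling intervals, occurred in 13 regions. Mid-length regions leaned the same way, since 171 had more sibling intervals and 44 more mutant intervals. All regions together had 4748190 tags in the mutant and 4091430 in the sibling, and the part of depth in this split was not tested. In wide regions the median log2 ratio of mutant to sibling was 0.38 where each library had 1 interval. It was 0.39 where the sibling had more and 0.22 where the mutant had more. The same medians in mid-length regions were 0.26, 0.39 and 0.06.

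Most wide regions lay at gene starts. The midpoint was within 1000 bp of a start in 337 of 469 regions (71.9%, 95% Wilson interval 67.6 to 75.7%), against 62.8% of mid-length regions, 28.1% below 500 bp and 35.4% of all regions. A CpG island was annotated in 194 (41.4%, 37.0 to 45.9%), against 25.9% and 6.30% in those shorter classes. At starts the CpG share was 50.7% (171 of 337), against 34.7% of mid-length starts and 15.3% of starts below 500 bp. Of the others, 63 lay inside a gene farther from a start, 34 lay outside genes but had a gene assigned, and 35 had no gene assigned. A start shared by 2 or 3 genes was found in 51 of 337 wide regions at starts (15.13%), against 10.4% and 8.31% in the shorter classes. Shared starts made up 40 of the 166 wide starts without a CpG island (24.1%) and 11 of the 171 with one (6.43%). One of them, 1209 bp on chromosome 23 from 36305783 to 36306992 (danRer11), served both *cbx5*, encoding a heterochromatin protein, and the splicing repressor gene *hnrnpa1b*.

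Wide start regions reached mainly into the gene, and shorter start regions did so too. The midpoint lay at a median of 240 bp downstream of the start, against 89 bp for mid-length starts and 29 bp below 500 bp. Longer regions allow longer distances. It was downstream in 236 of 337 (70.0%), against 68.4% of mid-length starts and 62.5% below 500 bp. At the median the midpoint lay 296 bp downstream at wide CpG island starts and 168 bp at the other wide starts. Where a single gene model gave the start, 307 of 330 regions ran across it, from a median of 350 bp upstream to 784 bp downstream. The corresponding reaches were 244 and 394 bp for mid-length regions and 173 and 210 bp below 500 bp. The region at *znf827*, a zinc finger gene, covered 72 bp upstream and 1590 bp downstream. That at *dhrs12*, whose region also holds a leucine tRNA gene, lay the other way, with 1128 bp upstream and 506 bp downstream.

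**Figure D2:**
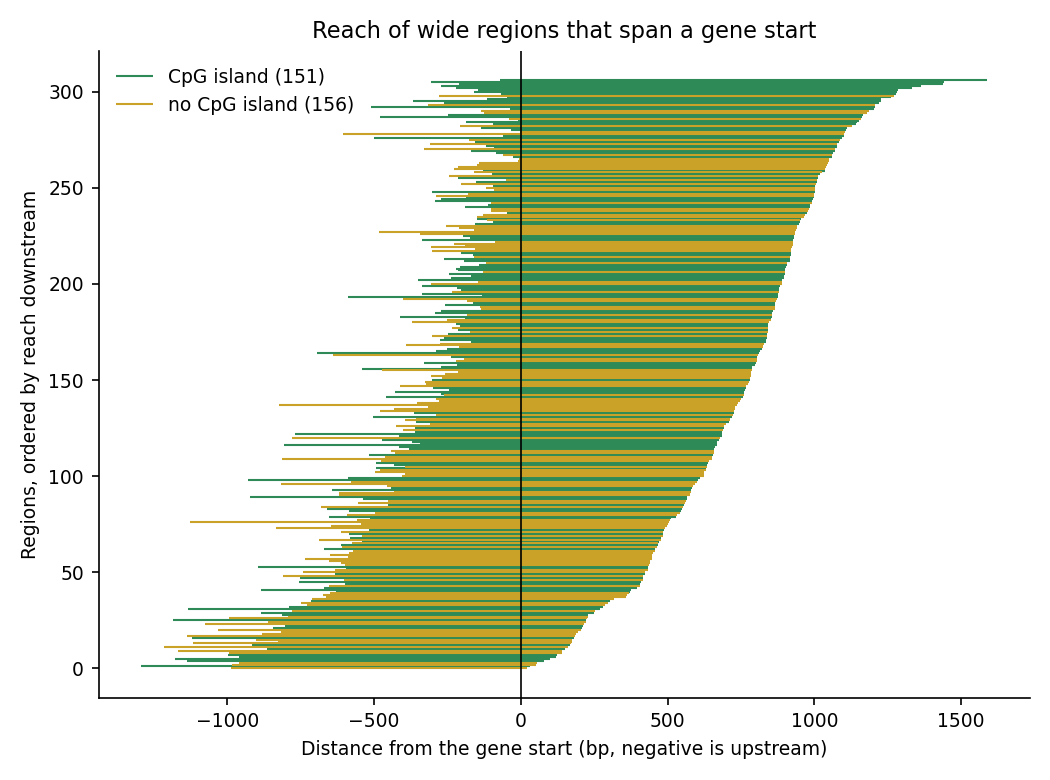
Each line is 1 of 307 wide regions that span a gene start with a single gene model, drawn by its distance from the start (bp, negative upstream) and ordered by its reach downstream. Green marks 151 regions with a CpG island and yellow 156 without. In 212 regions (69.1%) the part downstream was the longer one, against 67.1% of mid-length regions and 60.8% below 500 bp.

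The mutant signal was higher than the sibling signal at nearly every wide region, by a modest and even amount. The log2 ratio of mutant to sibling average signal, each plus 1, was above 0 in 449 of 469 (95.7%), against 62.0% of all regions. It was above 0 in 81.4% of mid-length regions, and in 91.0% of those from 800 bp up to the limit. The median ratio of wide regions was 0.39 with an SD over regions of 0.22, against 0.15 and 0.57 over all regions. Mid-length regions lay between, with a median of 0.26 and an SD of 0.32. The range was −0.31 to 1.47 in wide regions. A gain of 1.5-fold or more was seen in only 77 wide regions (16.4%), close to the 15.4% of all regions that passed this limit. None was 1.5-fold lower, against 12.7% of all regions. This share was also small in mid-length regions (1.46%) and from 800 bp up to the limit (0.09%). At 2-fold 1 was higher (0.213%, against 3.32% of all) and 0 were lower (4.83% of all). Wide regions had a median average signal of 107 in the mutant and 81.6 in the sibling, against 36.4 and 34.25 over all regions. Where the larger average was 200 or more, 0 regions were 1.5-fold lower in wide, mid-length and shorter classes alike. The part of signal strength in the narrow spread of wide regions was not tested. The peak signal was higher in the mutant in 426 of 469 (90.8%), against 59.8% of all regions and 77.6% of mid-length regions.

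Tags were estimated from signal and length, with medians of 570 in the mutant and 420 in the sibling per wide region. The 95% interval of the fold, for counting error only, lay above 1 in 378 regions, below 1 in 3 and held 1 in 88. All regions together had 1.16 times as many tags in the mutant as in the sibling. Measured against that common fold, the interval lay wholly above it in 228 wide regions and wholly below it in 18. How the libraries were scaled is not given in the sources used here, so a shared offset cannot be told apart from depth. After the ratios were centred along signal by a lowess curve, the median of wide regions was 0.13. Of the wide regions 352 were then above 0, against 50.9% of all regions. At least 1.5-fold higher were 9, against 12.6% of all regions higher and 8.36% lower.

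The ratio was larger in longer regions, and in each band of signal its median was highest in wide regions. Its median was −0.03 from 200 to below 300 bp, 0.13 to below 500 bp, 0.25 to below 800 bp and 0.34 from there up to the limit. In wide regions it was 0.37 below 1200 bp, 0.43 from there to below 1500 bp and 0.44 at 1500 bp or more. Among regions whose larger average lay between 100 and 200, 183 wide regions had a median of 0.41, against 0.32 for mid-length regions and 0.26 below 500 bp. At averages of 200 or more the medians were 0.44 for 74 wide regions, 0.30 for mid-length regions and 0.33 below 500 bp. The share past 1.5-fold did not follow this order. It was higher in wide regions between 100 and 200 (23.5%, against 9.44% of mid-length regions and 9.74% below 500 bp), but lower from 50 to 100 (11.7%, against 13.9% and 16.7%) and below 50 (9.76%, against 11.3% and 16.7%). At 200 or more it was 13.5%, against 4.15% and 14.4%. Length was set on the merged intervals of both libraries, so it is not independent of the signal in either.

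**Figure D3:**
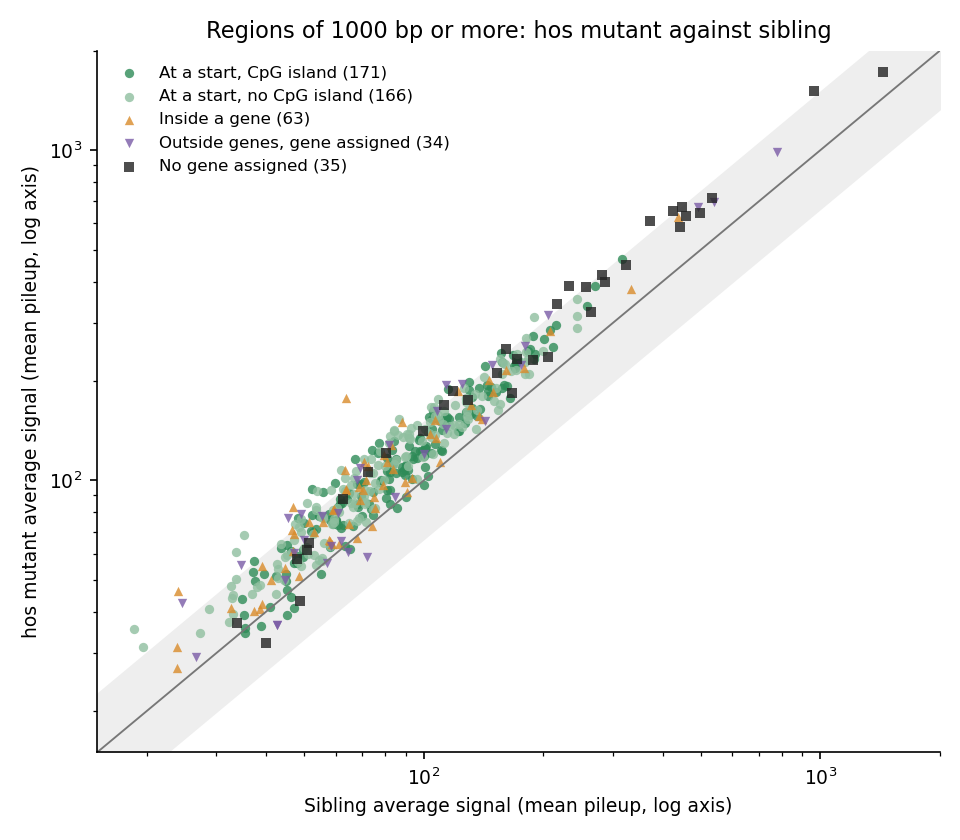
Average signal (mean pileup, log axes) of the 469 wide regions in the *hos* mutant (vertical) against the sibling (horizontal), marked by location, with equality as a line and a 1.5-fold band in grey. Nearly all points lie above the line, and *LOC110438638*, at 177 in the mutant and 63.5 in the sibling, stands farthest above the band.

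At the median, wide starts without a CpG island had a higher ratio than those with one, a difference that was not tested. All 166 were higher in the mutant, with medians of 107 in the mutant and 76.0 in the sibling, a median log2 ratio of 0.40 and 34 regions (20.5%) past 1.5-fold. The 171 CpG island starts had medians of 110 in the mutant and 85.4 in the sibling, a median ratio of 0.34 and 16 regions (9.36%) past 1.5-fold. Of the 20 wide regions with lower signal in the mutant, 11 were CpG island starts and none was a start without one. They included *pip4k2ab*, encoding a lipid kinase, with 39.2 in the mutant and 45.2 in the sibling. At *prmt6*, encoding an arginine methyltransferase of histones, the averages were 44.2 in the mutant and 46.3 in the sibling. The counting intervals of both hold 1 (0.71 to 1.06 and 0.79 to 1.15) but lie below the common fold of 1.16 over all regions.

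The single region past 2-fold was also the longest one. It covered 2734 bp inside *LOC110438638* on chromosome 4, from 77557951 to 77560685, joined 4 intervals and had a CpG island. Its average was 177 in the mutant and 63.5 in the sibling, its peak 229 in the mutant and 113 in the sibling, and the fold 2.79 (counting interval 2.57 to 3.03). The next ratios came from weaker regions, named here after their values were seen, the highest of them at the start of *dip2ba* with 68.3 in the mutant and 35.2 in the sibling (1.94-fold, 1.61 to 2.35). A region inside *tmem260* had 46.4 in the mutant and 23.9 in the sibling, and the start of the annexin gene *anxa13* had 35.5 in the mutant and 18.6 in the sibling. Among the regions whose larger average was at or above its median over wide regions (107, reached by 235), the highest ratio after *LOC110438638* was also on chromosome 4. It lay at the start of *ftr51*, of the large fish-specific finTRIM family, with 153 in the mutant and 86.5 in the sibling (1.77-fold, 1.58 to 2.0). Members of such repeated families resemble each other, and reads shared among copies may be placed uncertainly. Chromosome 4 held 22 wide regions, 12 of them away from starts, with a median ratio of 0.58, the highest of any chromosome. Of these 22, 9 were past 1.5-fold, against 16.4% of all wide regions and 15.4% of all regions. The ratio of all 1506 regions of chromosome 4 had a median of 0.20. Chromosome 20 had the lowest median for wide regions, 0.24 over 21 regions.

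Next among these stronger regions, *ezh1*, encoding a histone H3 lysine 27 methyltransferase of Polycomb complex PRC2, had 116 in the mutant and 67.3 in the sibling (1.73-fold, 1.5 to 2.0). The region far upstream of *nadsyn1* had 194 in the mutant and 114 in the sibling (1.70-fold, 1.54 to 1.89). A region inside *cicb*, a zebrafish gene of the Capicua repressor, had 150 in the mutant and 88.3 in the sibling (1.70-fold, 1.51 to 1.91). At the other end of the stronger regions, *mllt10*, a cofactor gene of the DOT1L histone methyltransferase, had 114 in the mutant and 110 in the sibling (1.04-fold, 0.91 to 1.18). The ubiquitin-conjugating enzyme gene *ube2g1a* had 163 in the mutant and 154 in the sibling, and *glg1a*, a Golgi glycoprotein gene, had 143 in the mutant and 136 in the sibling. The intervals of these 3 regions hold 1.

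At least 1 wide region lay at the start of 389 genes, 2.67% of the 14591 genes with any start region. The counts per gene list below are descriptions, since list members differ in signal and CpG content, and the lists were not chosen independently of these data. The shares were highest for immediate early and stress genes with 8 of 53 (15.09%), chromatin modifiers with 13 of 94 (13.8%), Klf and Sp factors with 4 of 30 (13.3%), SWI/SNF subunits with 4 of 35 (11.4%) and splicing regulators with 6 of 57 (10.5%). Circadian clock genes had 3 of 40 and cardiac transcription factors 2 of 33. The lists for which no member had a wide start included 75 ribosomal protein genes, 75 respiratory chain genes, 20 sarcomere genes, 19 calcium and ion channel genes and 19 endocardial genes. Their Wilson intervals reach 4.87% for each list of 75 genes, 16.1% for sarcomere genes and 16.8% for each list of 19. All of these limits are above 2.67%, so a count of 0 is not told apart from the share over all genes. The ribosomal protein starts were not short at the median, 598 bp against 455 bp over all genes, but the longest, at *rps18*, was 868 bp.

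**Figure D4:**
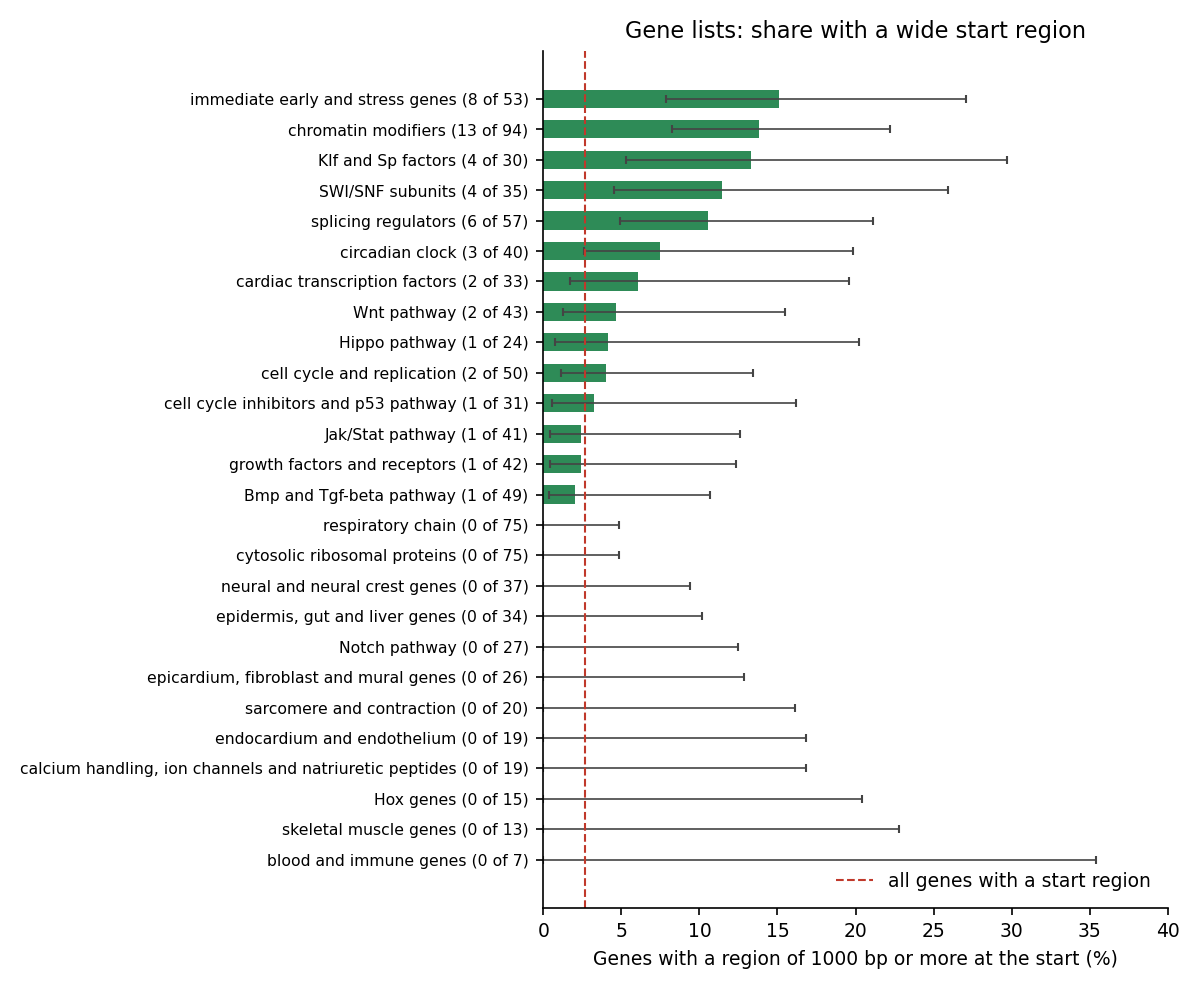
Percentage of the genes of each list whose start has a region of 1000 bp or more, among genes with a start region (counts in brackets), with 95% Wilson intervals. The dashed line marks the 2.67% of all such genes. Immediate early, chromatin, Klf and Sp, SWI/SNF and splicing lists lie above 10%, and 12 lists are at 0.

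Chromatin regulators were the largest group. Besides *ezh1*, the acetyltransferase gene *kat6a* had 222 in the mutant and 143 in the sibling (1.56-fold, 1.42 to 1.70) over 1224 bp. The architectural protein gene *hmgb1a* had one of the longest and strongest starts, 1523 bp with 269 in the mutant and 181 in the sibling (1.49-fold, 1.38 to 1.60). The H3 lysine 27 demethylase gene *kdm6a* had 183 in the mutant and 135 in the sibling, and its relative *kdm6ba*, with 1432 bp, had 75.8 in the mutant and 60.1 in the sibling. The weakest member was *setd2*, the H3 lysine 36 methyltransferase gene, with 49.9 in the mutant and 44.5 in the sibling (interval 0.93 to 1.36). Of the 13 members, 2 passed 1.5-fold, against 16.4% of all wide regions. All 13 ratios were above 0, as were 95.7% of those of wide regions, and their median was 0.43, against 0.39 over all wide regions.

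Of the 4 SWI/SNF genes with a wide start, the DNA-binding subunit genes *arid1aa* and *arid1b* were past 1.5-fold. The share was 16.4% of all wide regions and 15.4% of all regions, and a difference from it was not tested with so few members. *arid1aa* had 123 in the mutant and 73.9 in the sibling (1.67-fold, 1.48 to 1.89), and *arid1b*, over 1456 bp, had 57.04 in the mutant and 37.4 in the sibling (1.53-fold, 1.30 to 1.80). The core subunit gene *smarcc2* had 106 in the mutant and 73.2 in the sibling. *arid2*, of the PBAF form of the complex, had 229 in the mutant and 171 in the sibling. The regions of *smarcc2* and *arid2* spanned the gene start, while those of *arid1aa* and *arid1b* lay wholly downstream of it. A second wide region lay 6435 bp upstream of the *arid1aa* start, with 223 in the mutant and 149 in the sibling. A wide region with a CpG island was also found 21095 bp inside *smarcd3b*, whose mammalian counterpart is a heart-enriched subunit, with 283 in the mutant and 208 in the sibling.

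Immediate early genes are induced within minutes by many stimuli. Most of their wide starts differed little in unscaled signal, with folds at or below the common 1.16 of all regions. The AP-1 gene *jund*, 1595 bp with 4 intervals, had 96.7 in the mutant and 100.2 in the sibling (0.96-fold, 0.87 to 1.07). This interval lies wholly below the common fold. The AP-1 gene *junbb* had 177 in the mutant and 165 in the sibling (1.07-fold, 0.98 to 1.18), and the zinc finger gene *egr1* had 170 in the mutant and 155 in the sibling (log2 ratio 0.13, fold interval 0.99 to 1.22). The *fos* copies *fosaa*, with 64.8 in the mutant and 55.9 in the sibling, and *fosab*, with 156 in the mutant and 136 in the sibling, lay close to them. *jun* itself had 219 in the mutant and 170 in the sibling (1.28-fold, 1.17 to 1.41). Above the median of wide regions lay *ier5*, an immediate early response gene, with 190 in the mutant and 138 in the sibling (1.38-fold, 1.27 to 1.5), and *atf4a*, the main transcription factor of the integrated stress response, with 176 in the mutant and 109 in the sibling (1.62-fold, 1.46 to 1.80). The median log2 ratio of the 8 members was 0.20, below the 0.39 of wide regions. *junbb* was also the single wide gene among 41 Jak/Stat genes. Its wide region lay wholly downstream of the gene start.

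**Figure D5:**
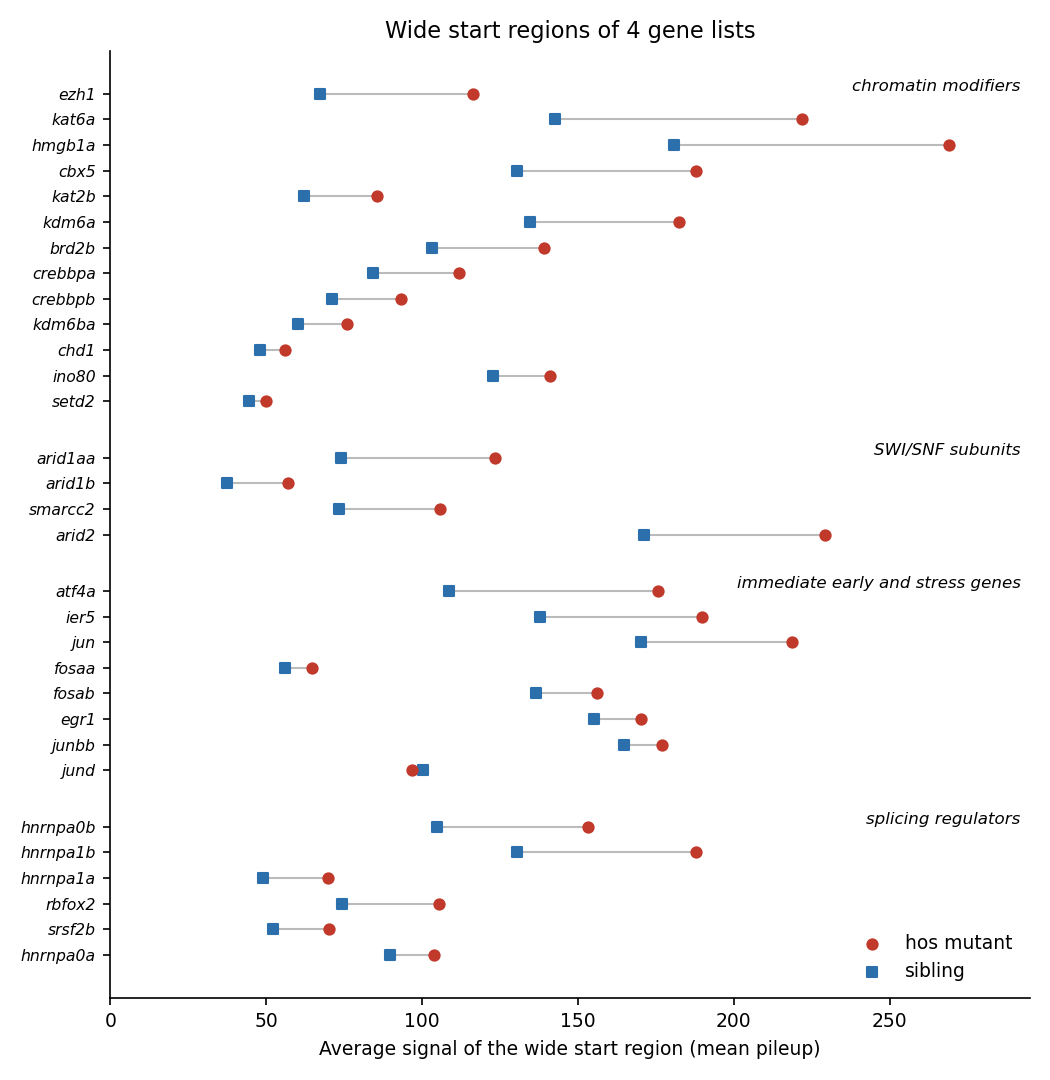
Average signal (mean pileup) of the wide start regions of 4 gene lists, with the *hos* mutant as red circles and the sibling as blue squares, ordered by ratio within a list. The mutant lies to the right of the sibling in all but *jund*, and *cbx5* and *hnrnpa1b* are the same region.

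Splicing regulators, with a median ratio of 0.50, were mostly *hnrnp* genes of RNA-binding proteins, and none passed 1.5-fold. *hnrnpa0b* had 153 in the mutant and 105 in the sibling (1.46-fold, 1.31 to 1.63), while its copy *hnrnpa0a* had 104 in the mutant and 89.6 in the sibling (1.16-fold, 1.03 to 1.31). The splicing factor gene *rbfox2* had 105 in the mutant and 74.3 in the sibling. Among clock genes, the repressor gene *cry1aa* had 138 in the mutant and 92.0 in the sibling (log2 ratio 0.58, fold interval 1.33 to 1.71), *per1b* had 241 in the mutant and 191 in the sibling, and *dbpb*, an output factor, had 286 in the mutant and 208 in the sibling. The wide Klf and Sp starts all held a CpG island, and *sp4*, encoding an activator that binds GC-rich promoters, was the strongest with 337 in the mutant and 257 in the sibling.

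Of the cell cycle list, *pcna*, the replication clamp gene, had 111 in the mutant and 76.5 in the sibling (1.46-fold, 1.28 to 1.66), and the helicase gene *mcm7* had 107 in the mutant and 91.3 in the sibling (1.18-fold, 1.04 to 1.33). The growth arrest gene *gadd45ba* had a 1550 bp start with 115 in the mutant and 84.9 in the sibling. The cardiac list contributed *srfa*, for the factor that drives muscle genes with its cofactors, with 193 in the mutant and 163 in the sibling (1.19-fold, 1.08 to 1.30), and the homeodomain cofactor gene *pbx4*, with 125 in the mutant and 101 in the sibling. Both held a CpG island and both ratios were below the median of wide regions. From the Wnt list came the receptor gene *fzd8a* (91.5 in the mutant and 64.8 in the sibling). The Wnt mediator gene *dvl1a* had 77.7 in the mutant and 55.6 in the sibling. The Bmp and Tgf-beta corepressor gene *skib* and the insulin receptor gene *insra* were each the single wide member of their list. *skib* had 58.8 in the mutant and 47.9 in the sibling, and *insra* had 58.8 in the mutant and 49.5 in the sibling. None of these 4 passed 1.5-fold.

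No marker of any of 9 cell types had a wide region. At most 5 markers of a type had a start region, so this is not told apart from the 2.67% over all genes. The longest marker region was at *myl7*, the atrial and ventricular light chain gene, at 993 bp just below the limit, with 181 in the mutant and 143 in the sibling. Its promoter is also in the transgene that all fish carried, and the number of transgene copies in each library was not measured. The start regions of 5 of 8 cardiomyocyte markers summed to 354 in the mutant and 224 in the sibling, and those of 4 of 4 neural markers to 372 in the mutant and 309 in the sibling. The sums were 166 in the mutant and 131 in the sibling for endocardium and 208 in the mutant and 201 in the sibling for epidermis. They were lower in the mutant for skeletal muscle (83.9 in the mutant and 108 in the sibling), epicardium (64.7 in the mutant and 74.4 in the sibling) and liver and gut (128 in the mutant and 146 in the sibling). Markers within a type could differ in direction. Of the neural markers, *elavl3* (171 in the mutant and 99.2 in the sibling) and *sox2* were higher in the mutant, but *neurod1* and *sox10* were lower. In skeletal muscle *ckma* was higher in the mutant, while *mylpfa* and *tnnt3b* were lower. In epicardium *wt1a* was higher and *tbx18* lower. Markers of erythrocytes and leukocytes had no start region. Fewer cells of a type and less open chromatin per cell cannot be told apart here, and the part of cell makeup in the ratios of wide regions was not tested.

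Both genes of a pair with like names could be wide. Among 1469 gene pairs that differ only by a final a or b and each have a start region, both were wide in 10 and 1 was wide in 81. Pairs were matched by name alone, so not all are duplicated copies, *chaf1a* and *chaf1b* being an example. A wide partner was present for 19.8% of wide pair genes, against 3.44% of pair genes that were wide. The 10 pairs with both wide were *ado*, *brpf3*, *crebbp*, *fosa*, *hmgb1*, *hnrnpa0*, *hnrnpa1*, *prr12*, *pten* and *yy1*. The acetyltransferase copies *crebbpa* and *crebbpb* were alike, at 1027 and 1115 bp, with log2 ratios of 0.40 and 0.39. *hmgb1b* had 1483 bp with 127 in the mutant and 91.7 in the sibling, close in length to *hmgb1a* but weaker. The tumour suppressor gene *ptenb* had 1475 bp with 112 in the mutant and 83.5 in the sibling, and *ptena* 1010 bp with 149 in the mutant and 127 in the sibling. In the 81 other pairs the shorter partner had a median of 568 bp.

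Further strong or long starts were chosen after their values were seen. *hexim1* and *mepce* encode proteins of the 7SK particle, which holds back the elongation kinase P-TEFb. *hexim1* had 388 in the mutant and 270 in the sibling (1.44-fold, 1.34 to 1.54), and *mepce* had 232 in the mutant and 173 in the sibling over 1533 bp (1.34-fold, 1.24 to 1.45). *cdk12*, a kinase gene of RNA polymerase II elongation, had 101 in the mutant and 81.6 in the sibling over 1552 bp. The strongest wide start was at *cicb*, with 469 in the mutant and 315 in the sibling (1.49-fold, 1.40 to 1.58), so this gene had both a wide start and the wide region farther inside, 29237 bp from the start. The longest was at *glcci1*, a glucocorticoid-induced gene, 1747 bp with 123 in the mutant and 111 in the sibling. *amd1*, like *odc1* an enzyme gene of polyamine synthesis, had 1633 bp with 222 in the mutant and 168 in the sibling (1.32-fold, 1.22 to 1.42), against 167 in the mutant and 104 in the sibling at *odc1* (1.60-fold, 1.43 to 1.81).

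Genes of tRNAs, which RNA polymerase III transcribes, lay at 13 of the 337 wide starts (3.86%, 2.27 to 6.49%), against 1.53% of mid-length starts and 1.66% below 500 bp. Together these 13 regions held 21 tRNA genes, and 1 had a CpG island. Several of them also lay at the start of another gene, among them *dhrs12*, *tia1*, *paip2b*, *eef2k*, *b4gat1* and *agbl5*. Their values are thus not those of tRNA genes alone. The median averages of the 13 regions were 142 in the mutant and 84.2 in the sibling, with a median log2 ratio of 0.53 and a range of 0.07 to 0.79. Past 1.5-fold were 5 of these 13, against 15.4% of all regions. The highest, on chromosome 8 from 23657975 to 23658994, had 107 in the mutant and 61.7 in the sibling (1.74-fold, 1.5 to 2.02). It held the starts of a histidine tRNA gene and of *tbc1d25*, of which that of *tbc1d25* was nearer to its midpoint. Nearby on chromosome 8 lay a region with valine, phenylalanine and arginine tRNA genes, with 142 in the mutant and 84.2 in the sibling (1.69-fold, 1.49 to 1.91). The lowest, with an alanine tRNA gene and *slc44a1a*, had 58.3 in the mutant and 55.5 in the sibling (1.05-fold, 0.88 to 1.25). The mid-length tRNA starts had a median ratio of 0.47, with 22 of 79 past 1.5-fold. Those below 500 bp had 0.38, with 39 of 153, so the higher ratios were not particular to wide ones. tRNA genes occur in many near-identical copies, and their read placement is uncertain.

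Of the wide regions with an average of 400 or more, 11 of 16 in the mutant and 8 of 12 in the sibling had no gene assigned. The 35 wide regions without a gene had medians of 237 in the mutant and 188 in the sibling, above every other location, whereas all regions without a gene had medians of 29.9 in the mutant and 29.8 in the sibling. They held 21.3% of the mutant tags and 20.4% of the sibling tags of wide regions, and 1 had a CpG island. The strongest covered 1211 bp on chromosome 17 from 39940782 to 39941993, with an average of 1725 in the mutant and 1437 in the sibling and a peak of 3508 in the mutant and 2934 in the sibling (log2 ratio 0.26, fold interval 1.17 to 1.24). On chromosome 7 the region from 53013291 to 53014485 had 1514 in the mutant and 966 in the sibling (1.57-fold, 1.51 to 1.62). The second longest of all wide regions, 2204 bp on chromosome 11 from 17567090 to 17569294, had 652 in the mutant and 426 in the sibling (1.53-fold, 1.47 to 1.59). The median log2 ratio of the 35 was 0.47, and 8 of 35 (22.9%) passed 1.5-fold, against 16.4% of all wide regions and 15.4% of all regions. The aligner is not described in the sources used here, and the part of read placement in the high signal of these regions was not tested.

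Of the 469 wide regions, 19 stood in 9 groups whose neighbours lay within 10000 bp. The rest had no wide neighbour at that distance, and neighbours of shorter regions were not counted. In 7 groups none was at a start. The group with the most members held 3 regions on chromosome 7 between 64598151 and 64611212. Their averages were 587 to 991 in the mutant and 441 to 776 in the sibling. Another group of 2 lay on chromosome 19 between 48017927 and 48025127. The first, at the shared start of *si:ch1073-205c8.3* and *zgc:158376* and without a CpG island, had 147 in the mutant and 96.1 in the sibling (1.53-fold, 1.37 to 1.71), and the other, at the start of the importin beta gene *kpnb1* and with one, had 141 in the mutant and 122 in the sibling (1.15-fold, 1.02 to 1.29).

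Inside genes, the 63 wide regions had medians of 93.6 in the mutant and 69.1 in the sibling and a median ratio of 0.37, and 15 held a CpG island. Their median distance from the nearest start was 17110 bp. The strongest were in *LOC110438161*, with 627 in the mutant and 438 in the sibling, and upstream of the *si:dkey-222f8.3* start, with 380 in the mutant and 334 in the sibling. The latter region was also assigned to *LOC101883576*, and its midpoint lay downstream of the start of that gene. Other strong ones were chosen after their values were seen. *tet3*, encoding an enzyme that oxidizes methylated cytosine, had 185 in the mutant and 149 in the sibling, 46577 bp from the start. The histone demethylase gene *kdm6al* had 202 in the mutant and 146 in the sibling, 2646 bp from the start, and *epc1b*, of the NuA4 acetyltransferase complex, had 216 in the mutant and 161 in the sibling. Outside genes, a region beside *mirlet7a-3* and *mirlet7b*, microRNA genes of the let-7 family, had 162 in the mutant and 108 in the sibling.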

How the data were processed

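ATAC-seq libraries of *hos* mutant and sibling hearts (1 each, grouped by the genotype labels) were made and sequenced by a commercial service. The submitters' processing notes name MACS2 2.1.0 and danRer11. For the aligner, duplicate handling, transposase shift and scaling, the description is not given in the sources used here. Intervals called in either library had been joined into common regions by the authors, who deposited, per library, an average signal (mean pileup over 32 bp bins), a peak signal (highest pileup) and a mark for a called interval, with CpG islands, genes and distances to gene starts. Columns of a log2 ratio and a shrunken log2 fold change hold the authors' own comparison and were not used. The deposited gene table served for gene models, other symbols and interval positions.

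Regions of 1000 bp or more were taken, and log2((mutant + 1)/(sibling + 1)) was computed from the signal without scaling. Limits were 1.5-fold and 2-fold. A start region had its midpoint within 1000 bp of a gene start and need not cover that start. Tags were estimated as average signal times length over 224, the divisor behind the deposited tag column within 0.1% in 100% of regions. Fold intervals are exact binomial 95% intervals on these tags and shares have Wilson intervals. PCR duplicates are not independent molecules, so both cover counting error only. No test between genotypes was made, because there is 1 library each.

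The members, the 26 gene lists (1301 symbols, 63 matched through other symbols) and the limits were chosen with earlier results of these data known. Named regions were the 12 longest, the 6 highest and 6 lowest ratios among those whose larger average reached its median over wide regions, the 6 strongest in the sibling, 5 on each side of the length limit and list members. All others were chosen after their values were seen, among them *pip4k2ab* and *prmt6*, and this is not said beside each of them. Steps were tested on simulated data. Promoter motifs and sequences were not analysed here. No per-library column was left unmapped. Software was statsmodels 0.14.6 (lowess, span 0.2), scipy 1.17.1, pandas 2.3.3, numpy 2.4.6 and matplotlib 3.10.9 under Python 3.11.15.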

Additional observations from a re-analysis of the deposited data

How the results depend on the processing

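No paired analysis was possible because each genotype has 1 library. The direction of the median log2 ratio was kept under every setting tried, but its size depends on scaling, about which the sources used here say nothing. The median of 0.39 became 0.34 with peak signal, 0.23 after centring on the median of all regions (0.15), 0.13 after lowess centring, 0.35 for a length limit of 800 bp and 0.44 for 1500 bp. The 77 regions at least 1.5-fold higher in the mutant became 18 after median centring, when 8.81% of all regions were higher and 17.3% lower, and 9 after lowess centring. At a limit of 800 bp they became 229 of 1586 regions (14.4%) and at 1500 bp 7 of 28 (25%), against 16.4% of the 469 wide regions. At a 2-fold limit 1 of the 469 was left. The count of 0 lower regions became 1 with peak signal and 1 at 800 bp. At 1500 bp the share with a CpG island was 50% and the share at starts 57.1%. At 800 bp the peak exceeded the average 1.77-fold in the mutant and 1.81-fold in the sibling. An alternative chosen after seeing the data kept the 283 regions with 1 interval in each library. Of these, 44 (15.5%) were 1.5-fold higher, 46.3% had a CpG island and 79.2% lay at starts. The cause of these shifts was not tested. Other alternatives, among them pseudocounts of 0.1 and 5 and leaving out regions without a gene, moved no value by more than its limit. With at least 131 mutant and 85.5 sibling tags in each wide region, folds near 1 cannot be told apart by counting alone in the 88 regions whose interval holds 1.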
